A study of Homo sapiens with 30 samples.

Results

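The comparison described here is the effect of O6-benzylguanine (O6-bzG) on H1299 cells that carried a p53 vector with a single O6-methylguanine (O6-meG), 6 h after transfection. H1299 is a human lung carcinoma line without p53. The cells were transiently transfected with pGFP, which expresses GFP alone, or with a vector that expresses GFP together with p53. The p53 sequence was wild type, the RW mutant (altered at codon 248), or p53 O6-meG, whose lesion sits on the template strand at that codon. A further group of cultures with the O6-meG vector received 10 µM O6-bzG, dissolved in DMSO, before transfection. Of the 30 libraries of the series, 6 belong to this comparison, 3 with and 3 without O6-bzG, and each was made from the total RNA of GFP-positive sorted cells. Both groups carry the same lesion in the same host line and passed the same sort. Whether the cultures without O6-bzG received the solvent is not given in the sources used here. The genes on the vectors are each driven by a tetracycline response element promoter on a plasmid that holds no known mammalian origin of replication. No other vector was combined with O6-bzG, so an effect of the drug on the cells and an effect of transcripts copied from an unrepaired lesion cannot be told apart.

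The libraries were grouped by the column names of the raw count table, and 2 of them have titles that contradict themselves. Both are replicate 2. The first part of each title, which the column name follows, puts it in 1 group, whereas its bracketed second part, like the genotype field and a second deposited table's header, puts it in the other. The main counts below are therefore given 3 ways: with the column names, without both replicate 2 libraries, and with those 2 libraries exchanged. Of the 874 genes called without both, 871 were also among the genes tested with all libraries. Over these 871 genes, the library labelled O6-meG by its column name lay nearer to the other libraries without O6-bzG at 95.6% of genes, and the library labelled O6-meG with O6-bzG lay nearer to the other O6-bzG libraries at 96.8% (log2 of CPM + 0.1). The grouping itself rests on the column names, and earlier results of these data were known when it was chosen.

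O6-alkylguanine-DNA alkyltransferase (AGT, the product of MGMT) removes the methyl group from O6-meG in a single step and is used up by it. O6-bzG is a substrate that inactivates AGT, so that O6-meG stays in the DNA. RNA polymerase II can read through O6-meG and place a wrong base in the transcript, a process called transcriptional mutagenesis (TM), and codon 248 encodes a residue of p53 that contacts DNA. p53 is a transcription factor that acts as a tetramer on response elements near its target genes, among them genes of cell cycle arrest (CDKN1A), apoptosis (BBC3), DNA repair (XPC) and its own negative feedback (MDM2).

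A p53 response element is a pair of 10-base units, joined directly or with a short spacer. It was searched within 2500 bases on each side of the start of each gene's canonical transcript (hg38, GENCODE v44). A spacer of at most 1 base and 2 mismatches in all were allowed. No mismatch was allowed in the central bases of a unit (C, A or T, A or T, G). The element is its own reverse complement, so the search covers both strands. Of the windows of all genes tested, 4.37% held a match (904 of 20673). The share was 8.65% among genes called lower with O6-bzG (114 of 1318), 9.19% among those at least 2-fold lower (50 of 544) and 3.46% among genes called higher (14 of 405). The matches below are shown for 1 of 2 reasons. They are among the closest matches found for genes named in the text (PLK2, DDB2, MIR34AHG, GADD45A and CCNG1), or they lie near the central targets CDKN1A and GDF15. The matched element is in capitals. Surrounding bases, in lower case, are shown where no annotated exon is near.
PLK2: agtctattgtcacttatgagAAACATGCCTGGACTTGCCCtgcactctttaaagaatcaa
DDB2: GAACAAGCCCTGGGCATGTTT
MIR34AHG: GGGCTTGCCTGGGCTTGTTC
GADD45A: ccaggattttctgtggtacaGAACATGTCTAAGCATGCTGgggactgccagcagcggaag
CCNG1: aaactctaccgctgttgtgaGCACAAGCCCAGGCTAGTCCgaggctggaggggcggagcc
CDKN1A: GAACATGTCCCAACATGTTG
GDF15: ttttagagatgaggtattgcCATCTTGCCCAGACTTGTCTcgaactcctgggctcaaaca
The PLK2 element, with 0 mismatches, begins 2207 bases before the start (chr5:58462274-58462293, minus strand). The DDB2 element, also with 0 mismatches, begins 5 bases after the start in an exon (chr11:47214979-47214999, plus strand). The MIR34AHG element (chr1:9182144-9182163, minus strand) has 0 mismatches as well and begins 229 bases after the start in an exon. The GADD45A element (chr1:67686775-67686794, plus strand) and the CCNG1 element (chr5:163437926-163437945, plus strand) have 1 mismatch each and lie in introns. The CDKN1A element (chr6:36676449-36676468) and the GDF15 element (chr19:18385308-18385327) lie on the plus strand 2265 and 850 bases before the start, each with 2 mismatches. A match is a description of the sequence, and binding of p53 was not measured here. EGR1 and GADD45B, which rose with O6-bzG, each also held a match with 2 mismatches.

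The 6 libraries held between 38905286 and 58180943 counts each. Of 39359 genes in the table, 20875 had enough counts to be tested. Levels are given as CPM, the counts of a gene relative to all counts of its library after TMM scaling. This sets the libraries to a common scale and does not correct for gene length. Of 9 lung epithelium markers, 2 (KRT8 and KRT18) were above 1 CPM, and NKX2-1, SFTPC, SFTPB, SCGB1A1, EPCAM, CDH1 and KRT19 were at or near 0, whereas 4 of 5 mesenchymal markers were above 1 CPM. The summed level of the epithelial markers was 806 to 902 CPM without and 740 to 803 CPM with O6-bzG, and that of the mesenchymal markers 3370 to 3710 and 3250 to 3540 CPM. None of the 9 of these markers that could be tested was called. Of 10 markers of other cell types, HBB alone was above 1 CPM, at 162 to 326 CPM without and 255 to 346 CPM with O6-bzG, and PTPRC was at 0 in every library. PDGFRB, below 1 CPM in every library and raised by wild type p53, was called lower.

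MGMT, which encodes AGT, measured 14.1, 14.6 and 14.3 CPM without and 14.7, 13.4 and 11.3 CPM with O6-bzG (log2 fold change −0.13 ± 0.11 SE, adjusted p = 0.61). O6-bzG acts on the AGT protein, so the level of MGMT mRNA is no measure of its activity.

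With O6-bzG, more genes were called lower than higher, and members of each list of p53 targets were among the lower genes. Of the 20875 genes tested, 1326 were called lower (6.35%) and 406 higher (1.94%) at an adjusted p under 0.05, and 589 (2.82%) also differed at least 2-fold, 550 of them lower and 39 higher. The split was 1159 lower and 619 higher with DESeq2 size factors in place of TMM, 1262 and 776 with DESeq2, 919 and 641 among genes with at least 10 counts in every library, and 1662 and 1129 from the 6 h libraries alone. With a replicate block it was 2665 lower and 1260 higher. Without both replicate 2 libraries, 718 of 21335 genes were lower (3.37%) and 156 higher (0.731%), of which 704 and 149 were also called with all 6 libraries. With the replicate 2 libraries exchanged, edgeR and DESeq2 each called 0 genes, and 182 genes were lower and 213 higher at an unadjusted p under 0.05 with edgeR (142 and 208 with DESeq2). The lower genes had a median log2 fold change of −0.82 (quartiles −1.71 and −0.47) and the higher genes one of 0.40 (quartiles 0.30 and 0.58). The count of higher genes also depended on single libraries: it was 249 without O6-meG replicate 2, 255 without O6-meG replicate 3, 264 without O6-bzG replicate 2 and 232 without O6-bzG replicate 3. These are levels in the RNA of many sorted cells, in which fewer responding cells and less RNA per cell cannot be told apart.

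The comparison of wild type p53 with pGFP at 6 h shares no library with the O6-bzG comparison. Wild type p53 raised 1898 of the 20875 genes (9.09%) and lowered 378 (1.81%). Same-numbered libraries of these 2 groups deviated together, and with a replicate block it raised 2935 and lowered 1104. It raised 1105 of the 1326 genes that were lower with O6-bzG (83.3% of these, 58.2% of the raised genes), or 1193 with the block. It lowered 0 of the 1326 with or without the block. Of the 406 genes that were higher with O6-bzG it lowered 133 (32.8%, or 35.2% of the lowered genes, and 208 with the block) and raised 1, NGFR, a neurotrophin receptor gene named after its values were seen. The NGFR call (adjusted p = 0.029) was lost without both replicate 2 libraries (0.32), O6-meG replicate 2 (0.088), O6-meG replicate 3 (0.15) or O6-bzG replicate 2 (0.19). Without both replicate 2 libraries, 649 of 718 lower genes were raised by wild type p53 (90.4%) and 52 of 156 higher genes were lowered by it (33.3%). Of the 935 genes that wild type p53 raised at least 2-fold, 923 had a lower mean with O6-bzG and 616 were called lower. Over 14163 genes with a mean of at least 1 CPM over the 30 libraries the 2 log2 fold changes had a Pearson r of −0.87, a description across genes, which are not independent replicates. The median gene of those 935 stood at 61.0%, 69.9% and 47.5% of its wild type rise in the 3 libraries without O6-bzG and at −0.395%, −0.865% and 1.33% in the 3 libraries with it.

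**Figure D1:**
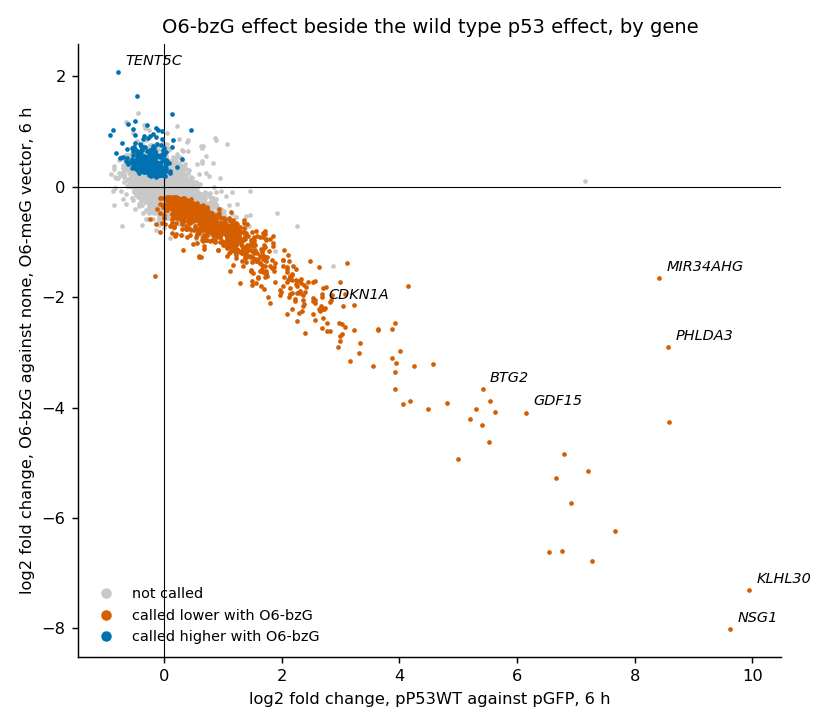
Each point is a gene with a mean of at least 1 CPM at 6 h. The x axis gives its log2 fold change with wild type p53 against pGFP and the y axis its log2 fold change with O6-bzG against none in cells with the O6-meG vector. Genes called lower with O6-bzG (orange) extend to the lower right, and MIR34AHG (−1.65) and PHLDA3 (−2.90) lie above other genes with as large a rise with wild type p53.

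Genes listed as feedback on p53, some of which hold it in check, were among those that fell. Of 12 genes of p53 feedback, 6 were called lower and 0 higher, with a median log2 fold change of −0.46 against −0.03 over all genes tested. MDM2, the ubiquitin ligase that degrades p53, measured 1150, 1180 and 972 CPM without O6-bzG and 286, 300 and 348 CPM with it, against a mean of 192 CPM in pGFP. All 3 O6-bzG libraries lay below all 3 without it and above pGFP. The fall was 3.53-fold (log2 fold change −1.82 ± 0.15 SE, adjusted p = 1.0e-09). PPM1D, a phosphatase that switches off the p53 response, fell 1.76-fold, and TP53INP1, a p53-induced nuclear protein, 3.31-fold. CCNG1, cyclin G1 (log2 fold change −0.32, adjusted p = 0.035), and TNFAIP8 (−0.60, adjusted p = 0.0085) were also called, and both calls were lost without the replicate 2 libraries (adjusted p of 0.21 and 0.14). That of TNFAIP8 was lost without O6-meG replicate 2 alone (0.06), and that of CCNG1 without any single library of the 6 except O6-meG replicate 3 (adjusted p up to 0.15). MDM4 and COP1, which hold p53 down by other routes, were not called (log2 fold changes 0.14 and −0.22).

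Of 17 genes of cell cycle arrest, 11 were lower and 1 was higher (median log2 fold change −0.92). CDKN1A, the inhibitor of cyclin-dependent kinases known as p21 (chromosome 6, 36676460 to 36687337), measured 268, 249 and 261 CPM without O6-bzG and 65.7, 50.0 and 57.7 CPM with it. Its mean was 39.9 CPM in pGFP and 255 CPM with wild type p53. The libraries without O6-bzG lay near wild type p53, and the fall with it was 4.48-fold (log2 fold change −2.16 ± 0.16 SE, adjusted p = 2.5e-10). The O6-bzG libraries stood 0.53 above pGFP on the log2 scale, which was called with a replicate block (adjusted p = 0.0008) and not without (0.2). BTG2, an antiproliferative gene that also belongs to the feedback list, had the smallest p of all genes tested. It measured 105, 101 and 80.5 CPM without O6-bzG and 6.74, 6.80 and 8.86 CPM with it, a fall of 12.8-fold (log2 fold change −3.67 ± 0.15 SE, adjusted p = 9.5e-16). In pGFP its mean was 2.20 CPM, so that the O6-bzG libraries stayed above it (adjusted p = 1.8e-07).

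Other arrest genes moved in both directions. PLK2, a kinase of the Polo family, measured 199, 197 and 164 CPM without and 62.2, 57.0 and 56.1 CPM with O6-bzG, a 3.19-fold fall (adjusted p = 2.6e-10). GADD45A, a growth arrest gene, measured 71.1, 63.3 and 61.2 CPM without and 37.3, 23.6 and 30.4 CPM with O6-bzG, and fell 2.14-fold (adjusted p = 1.1e-04). The groups do not overlap in either gene. ZNF385A fell 7.13-fold, PRDM1 by 1.73 on the log2 scale and E2F7, a repressor of the E2F family, 1.64-fold. SFN, which encodes 14-3-3σ, was below 1 CPM in all 6 libraries, and its call (log2 fold change −1.46, adjusted p = 0.03) was lost without both replicate 2 libraries (adjusted p = 0.14) and without any single library except O6-meG replicate 2. GADD45B, a paralogue of GADD45A, rose 1.58-fold (adjusted p = 0.011, and 0.052 without both replicate 2 libraries, 0.091 without O6-meG replicate 2 and 0.13 without O6-bzG replicate 1).

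**Figure D2:**
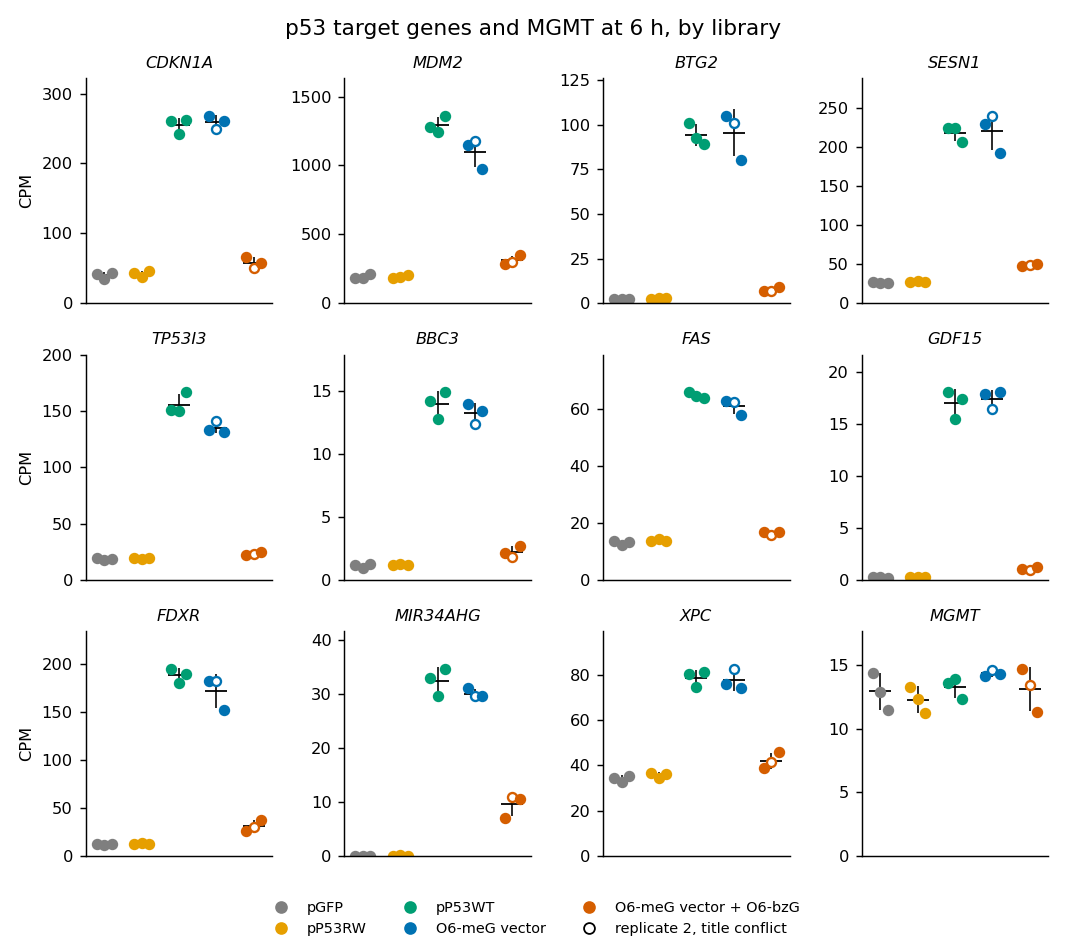
Each panel shows a gene in the 15 libraries of 6 h, with CPM on a linear y axis that starts at 0, points for single libraries, and a black bar and line for the mean and SD of 3. Open circles mark the 2 libraries with contradictory titles. CDKN1A lies between 50.0 and 65.7 CPM with O6-bzG and between 249 and 268 CPM without it, MIR34AHG stands at 7.01 to 11.0 CPM with O6-bzG against a pGFP mean of 0.0918 CPM, and MGMT overlaps between both groups.

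Of 23 genes of intrinsic apoptosis, 9 were lower and 0 higher (median log2 fold change −0.40). BBC3, which encodes the BH3-only protein PUMA, measured 14.0, 12.4 and 13.4 CPM without O6-bzG and 2.08, 1.77 and 2.69 CPM with it, a 6.03-fold fall (log2 fold change −2.59 ± 0.18 SE, adjusted p = 6.0e-11). TP53I3, an oxidoreductase gene, measured 133, 141 and 132 CPM without and 22.2, 22.9 and 24.5 CPM with O6-bzG, and fell 5.84-fold (adjusted p = 1.9e-11). For both genes the groups are far apart and each group is narrow. APAF1, the scaffold of the apoptosome, fell 3.22-fold from a mean of 128 to 39.8 CPM, and its pGFP mean was 39.3 CPM. BAX, a pore-forming member of the BCL2 family, fell 1.73-fold, and BAK1 and AEN were also lower. PMAIP1, which encodes NOXA, had values of 79.7, 80.2 and 42.4 CPM without and 47.7, 54.2 and 45.5 CPM with O6-bzG. These overlap through replicate 3, and the gene was not called (adjusted p = 0.094) unless that library was left out (log2 fold change −0.70, adjusted p = 0.00092). BCL2L1, which opposes apoptosis, had a log2 fold change of −0.24 and was not called.

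Of 11 genes of the death receptor pathway, 7 were lower and 0 higher, with a median log2 fold change of −1.03. FAS, the receptor of the FAS ligand, measured 62.5, 62.3 and 57.6 CPM without O6-bzG and 16.8, 15.8 and 16.6 CPM with it, a 3.71-fold fall (log2 fold change −1.89 ± 0.14 SE, adjusted p = 4.0e-10). ACTA2, which overlaps FAS on the opposite strand and was named after its values were seen, fell 4.40-fold, and without the strand setting of the counting the reads of the pair cannot be assigned with certainty. TNFRSF10B and TNFRSF10D, receptors of TRAIL, fell 2.18-fold and 2.38-fold. CASP10, an initiator caspase, held at most 2 counts in any O6-bzG library and was at least 3.46-fold lower, computed at 3 counts per library. TNFRSF10A, PIDD1 and CFLAR were lower as well, while CASP8, the initiator caspase next to CASP10, was not called.

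Of 13 repair genes known as p53 targets, 8 were lower and 0 higher (median log2 fold change −0.48). XPC, the damage sensor of nucleotide excision repair, measured 75.7, 82.6 and 74.2 CPM without O6-bzG and 39.0, 41.3 and 46.0 CPM with it, a 1.84-fold fall (adjusted p = 5.6e-08). DDB2, which recognises ultraviolet lesions, measured 90.1, 88.4 and 88.4 CPM without and 46.6, 50.3 and 53.1 CPM with O6-bzG, against a pGFP mean of 27.4 CPM, and fell 1.78-fold. In DDB2 the O6-bzG libraries lay above pGFP (adjusted p = 4.7e-06) as well as below the other group. POLH, a translesion polymerase, fell 2.92-fold and PCNA, the sliding clamp, 1.40-fold. In contrast, of 16 genes of alkylation and mismatch repair, 15 were not called, MPG among them.

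Of 19 metabolic and autophagy targets, 9 were lower and 1 was higher (median log2 fold change −0.89). SESN1, a stress-induced inhibitor of mTORC1 signalling, measured 230, 240 and 193 CPM without O6-bzG and 47.7, 49.0 and 50.3 CPM with it, a 4.51-fold fall (log2 fold change −2.17 ± 0.12 SE, adjusted p = 1.3e-12). GDF15, a secreted stress cytokine, measured 17.8, 16.4 and 18.0 CPM without and 0.970, 0.884 and 1.18 CPM with O6-bzG, a 17.0-fold fall (log2 fold change −4.09 ± 0.18 SE, adjusted p = 8.4e-15). The range within each group was small beside this difference. FDXR, the reductase that feeds electrons to mitochondrial P450 enzymes, fell 5.51-fold, from 182, 182 and 152 CPM to 25.9, 30.1 and 37.5 CPM. GLS2, the liver-type glutaminase, fell 16.2-fold to a mean of 0.796 CPM, against 0.815 CPM in pGFP. TIGAR and DRAM1, regulators of glycolysis and autophagy, fell 2.62-fold and 2.99-fold. The 3 sestrin genes did not move alike: SESN2 fell 1.93-fold, whereas SESN3 rose 2.18-fold, from 6.25, 6.55 and 5.38 CPM to 11.2, 13.0 and 15.4 CPM (adjusted p = 8.0e-05).

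The largest falls by fitted fold change were in genes close to silent in pGFP. They were ranked among called genes with a mean of at least 1 CPM in either group and groups that do not overlap, and those given first here reached that level only without O6-bzG. KLHL30, of the kelch-like family, measured 5.21, 5.52 and 4.04 CPM without O6-bzG and 0.0226, 0.0246 and 0.0357 CPM with it, which is at most 2 counts in any library, and was at least 75.8-fold lower. NSG1, a neuronal endosomal protein gene, was at least 67.1-fold lower, SFRP4, a secreted inhibitor of WNT signalling, at least 35.6-fold and RGMA, a neural guidance gene with 0 counts in the O6-bzG libraries, at least 18.9-fold. These bounds were computed at 3 counts per library. TP53I11 fell from 10.2, 11.1 and 7.86 CPM to 0.113, 0.0246 and 0.214 CPM, and PLXNB3, a semaphorin receptor gene, from a mean of 7.14 to 0.0693 CPM. Together, 138 of the 1326 lower genes held at most 3 counts in every O6-bzG library. NKX2-5, a homeobox gene, and PANK1, which encodes a pantothenate kinase, were among the 5 smallest p values: NKX2-5 measured 17.8, 16.9 and 14.0 CPM without and 2.64, 2.24 and 3.00 CPM with O6-bzG, and PANK1 51.5, 54.6 and 36.5 CPM without and 8.32, 8.79 and 8.63 CPM with it. The pGFP means of 2.88 and 8.11 CPM lie at the level of the O6-bzG libraries.

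A smaller set of p53 targets stayed above pGFP in the presence of O6-bzG. This comparison shares its O6-bzG libraries with the main one. Against pGFP, 56 genes were higher with O6-bzG (0.268%) and 10 lower (0.0479%), and without O6-bzG replicate 1 or replicate 3 the higher genes numbered 27 and 31. Same-numbered libraries of these 2 groups deviated together (correlations of 0.252, 0.243 and 0.428), and with a replicate block 383 genes were higher and 316 lower. Of the 1326 lower genes, 23 were still called above pGFP (1.73% of these, 41.1% of the 56), or 48 with the block. LNCTAM34A stood 7.92 above pGFP on the log2 scale with O6-bzG. MIR34AHG, the host gene of the miR-34a precursor, stood 6.66 above it. It measured 31.0, 29.6 and 29.5 CPM without O6-bzG and 7.01, 11.0 and 10.6 CPM with it, against a mean of 0.0918 CPM in pGFP and 32.4 CPM with wild type p53. It therefore fell 3.15-fold with O6-bzG (adjusted p = 3.6e-05) and kept 31.5% of its rise over pGFP. LNCTAM34A, which overlaps it on the opposite strand, was among the 23 too (log2 fold change with O6-bzG −1.21, lost without both replicate 2 libraries or O6-bzG replicate 1 alone, adjusted p = 0.057 and 0.069), and reads of this pair cannot be told apart without the strand setting. PHLDA3, an inhibitor of AKT, fell 7.47-fold and kept 13.0% of its rise. The share kept was 36.7% for DDB2, 33.2% for SESN2, 28.0% for PPM1D, 22.7% for TNFRSF10B and 13.1% for MDM2. It was 5.63% for BTG2, 4.50% for GDF15, 1.21% for PANK1, 0.555% for APAF1 and −0.159% for GLS2. Over the 459 genes at least 2-fold lower with O6-bzG and at least 2-fold above pGFP without it, the median share was −0.266% (quartiles −6.02% and 4.55%), and 50 genes kept 10% or more. These shares describe genes chosen for their fall.

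Some genes were lower with O6-bzG than in both comparison groups, and how many depended on the model. Of the 1326 lower genes, 221 were not called raised by wild type p53, although with the replicate block 1193 of the 1326 were called raised. In all, 10 genes lay below pGFP with O6-bzG, 6 of them among the 1326, and this count was 4, 5 and 2 without O6-bzG replicates 1, 2 and 3 and 2 without both replicate 2 libraries. With the replicate block, 72 of the 1326 lay below pGFP. ASB2, which encodes a substrate adaptor of a ubiquitin ligase, measured 1.03, 1.10 and 1.46 CPM without and 0.586, 0.442 and 0.499 CPM with O6-bzG, against means of 1.12 CPM in pGFP and 1.09 CPM with wild type p53. Its log2 fold change with O6-bzG was −1.22 against none (adjusted p = 1.3e-04) and −1.12 against pGFP (adjusted p = 0.0055), and with wild type p53 it was −0.03 (adjusted p = 0.99). RGS4, a regulator of G protein signalling, CYP1B1, a cytochrome P450 of the aryl hydrocarbon receptor pathway, SLITRK5, C2CD2 and TMEM44 were the other 5, of which all except CYP1B1 were named after their values were seen. Wild type p53 raised SLITRK5 against pGFP (log2 fold change 0.44, adjusted p = 0.012). RGS4, CYP1B1, C2CD2 and TMEM44 were not called in that comparison. The fall of RGS4 (log2 fold change −1.65) lost its call without O6-meG replicate 3 (adjusted p = 0.059) and that of TMEM44 without both replicate 2 libraries (0.06). CYP1B1 measured 19.9, 22.6 and 17.3 CPM without and 15.6, 13.8 and 13.0 CPM with O6-bzG (log2 fold change −0.50, adjusted p = 0.011), and was not called without O6-meG replicate 2 (adjusted p = 0.095), O6-bzG replicate 2 (0.05), O6-bzG replicate 3 (0.076) or both replicate 2 libraries (0.22). Among genes not called with wild type p53, the smallest p values also belonged to CD83 (log2 fold change −0.73), KCNJ8 (−1.28), LZTS2 (−0.56) and PHLDB1 (−0.35). These genes were not called below pGFP with O6-bzG (adjusted p = 0.31, 0.4, 0.23 and 0.21). The replicate block called KCNJ8, LZTS2 and PHLDB1 below pGFP (adjusted p = 0.023, 0.012 and 0.016) and not CD83 (0.067). Without O6-bzG, CD83 stood above pGFP (log2 fold change 0.43, adjusted p = 0.0043). With the replicate block, wild type p53 against pGFP was called for KCNJ8, LZTS2 and PHLDB1 (log2 fold changes 0.60, 0.27 and 0.18, adjusted p = 0.0017, 0.0086 and 0.0073).

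Genes that rose with O6-bzG did so by less. Of the 14 genes tested of the integrated stress response, through which cells react to amino acid shortage and misfolded protein, 6 were higher and 2 lower (median log2 fold change 0.32), against 1.94% higher over all genes. ASNS, asparagine synthetase, measured 4.18, 4.94 and 2.80 CPM without O6-bzG and 6.41, 10.1 and 9.84 CPM with it, a 2.20-fold rise (log2 fold change 1.14 ± 0.20 SE, adjusted p = 2.3e-04). Its pGFP mean of 6.46 CPM lay between both groups, and wild type p53 lowered it. HERPUD1, of endoplasmic reticulum protein degradation, measured 42.8, 34.5 and 28.7 CPM without and 91.4, 58.0 and 69.8 CPM with O6-bzG, a 2.07-fold rise (adjusted p = 0.0015). CHAC1, a glutathione-degrading enzyme, measured 17.4, 17.7 and 10.7 CPM without and 26.9, 22.9 and 25.3 CPM with O6-bzG, against 14.2 CPM in pGFP, and was higher than both (adjusted p = 0.0025 and 0.0086). Among these 3 genes the groups do not overlap.

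The other 3 calls of this list were less stable. DDIT3, which encodes the transcription factor CHOP, measured 26.7, 17.4 and 19.8 CPM without and 60.9, 21.5 and 34.5 CPM with O6-bzG. The groups overlap, and the call (adjusted p = 0.015) was lost without O6-bzG replicate 1 (log2 fold change 0.40, adjusted p = 0.27), O6-meG replicate 2 (0.097) or O6-meG replicate 3 (0.066). ATF4, the central factor of the pathway, rose 1.28-fold (adjusted p = 0.029, and 0.15 without both replicate 2 libraries), and STC2 1.51-fold (adjusted p = 0.02, and 0.069 without both). Each of these 2 calls was also lost without O6-meG replicate 2, O6-meG replicate 3 or O6-bzG replicate 1, at adjusted p values of 0.084, 0.13 and 0.13 for ATF4 and 0.09, 0.071 and 0.1 for STC2. ATF4 lost it without O6-bzG replicate 2 (0.069) and STC2 without O6-bzG replicate 3 (0.071). The lower members, SESN2 and DDIT4, belong also to the metabolic p53 targets. DDIT4, an inhibitor of mTORC1 signalling, fell 1.86-fold, a call lost without both replicate 2 libraries (adjusted p = 0.16) and without O6-bzG replicate 2 (0.061). HSPA5, the chaperone BiP, had a log2 fold change of 0.43 and was not called. Without both replicate 2 libraries, 4 of the 14 were higher and 1 lower. SLC7A11, the cystine transporter, listed among NRF2 targets, rose 1.57-fold (adjusted p = 0.0045).

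The smallest p among rises was that of LINC02432, a long non-coding RNA, with 20.6, 21.3 and 21.6 CPM without O6-bzG and 39.2, 39.9 and 39.4 CPM with it (log2 fold change 0.90 ± 0.11 SE, adjusted p = 6.9e-07). Its pGFP mean was 22.6 CPM, so that the O6-bzG libraries stood apart from pGFP too (adjusted p = 7.8e-05). NR1H4, the bile acid receptor FXR, measured 2.54, 3.40 and 3.27 CPM without and 7.15, 6.36 and 7.51 CPM with O6-bzG, a 2.29-fold rise, against 4.30 CPM in pGFP. ZNF506 and ZNF10, zinc finger genes, rose 1.62-fold and 1.74-fold, and wild type p53 lowered both (log2 fold changes −0.55 and −0.72 against pGFP). Among called genes with a mean of at least 1 CPM in either group and groups that do not overlap, the largest rises were those of TENT5C, a poly(A) polymerase gene (0.786, 0.653 and 0.330 CPM to 1.98, 2.87 and 2.78 CPM, 4.24-fold), RANP4, a pseudogene that can share reads with its parent gene (3.57-fold, a call lost without both replicate 2 libraries or O6-bzG replicate 2 alone, adjusted p = 0.15 and 0.06), NPTX2, neuronal pentraxin 2 (3.34-fold), and DLL4, a Notch ligand (3.23-fold). These 4 genes reached a mean of 1 CPM with O6-bzG and not without it. Of the 406 higher genes, 19 were also above pGFP with O6-bzG (4.68% of these, 33.9% of the 56), or 82 with the replicate block, and 0 below it.

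Of 13 immediate early genes, 2 were lower, 2 higher and 9 not called. Over all genes tested, 6.35% were lower and 1.94% higher. Without both replicate 2 libraries, 1 of the 13 was lower and 1 higher. EGR1 measured 43.2, 36.4 and 40.2 CPM without and 83.0, 59.3 and 96.9 CPM with O6-bzG, a 2.00-fold rise (adjusted p = 0.0023). EGR2, its paralogue, measured 2.36, 2.82 and 1.81 CPM without and 0.158, 0.123 and 0.178 CPM with O6-bzG, a 14.8-fold fall (adjusted p = 7.0e-08), and was raised by wild type p53 by 5.54 on the log2 scale. The 2 genes thus went opposite ways in all 3 libraries with O6-bzG. FOS rose 1.48-fold with groups that overlap (adjusted p = 0.021, and 0.12 without both replicate 2 libraries), and its call was lost without O6-meG replicate 1 (0.1) or 2 (0.17) and without O6-bzG replicate 1 (0.1) or 3 (0.066). DUSP1, a phosphatase that acts on MAP kinases, fell by 0.47 on the log2 scale (adjusted p = 0.017, and 0.14 without both), a call lost without O6-meG replicate 3 (0.1), O6-bzG replicate 2 (0.13) or O6-bzG replicate 3 (0.075).

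**Figure D3:**
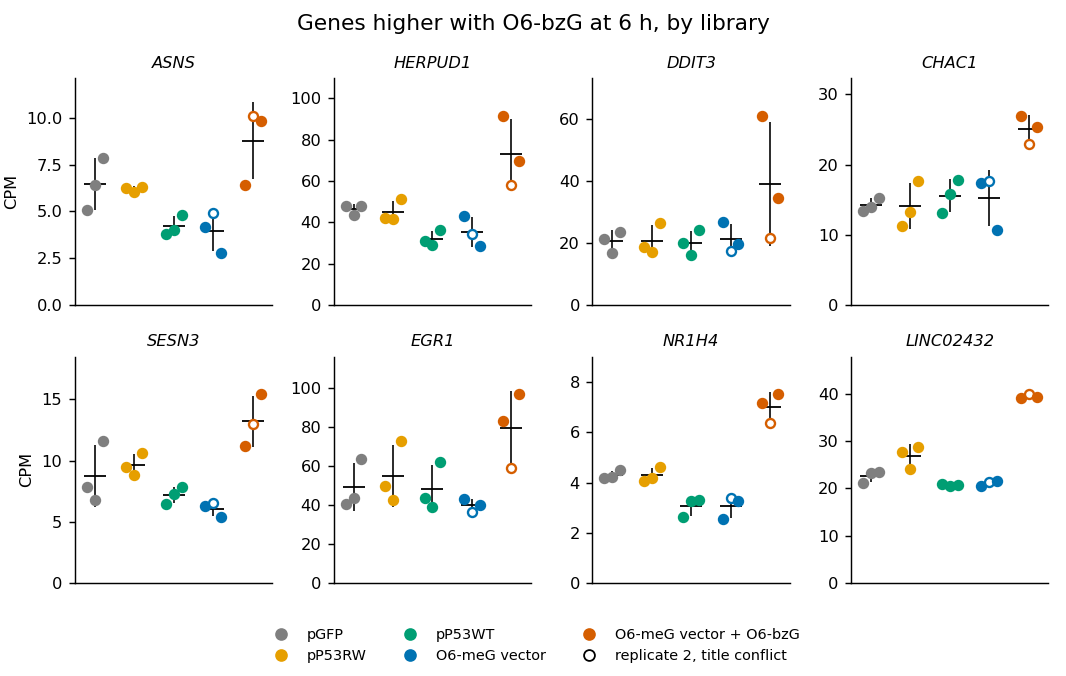
Each panel shows a gene in the 15 libraries of 6 h, with CPM on a linear y axis that starts at 0, points for single libraries, and a black bar and line for the mean and SD of 3. Open circles mark the 2 libraries with contradictory titles. LINC02432 lies between 39.2 and 39.9 CPM with O6-bzG and between 20.6 and 21.6 CPM without it, while DDIT3 spreads from 21.5 to 60.9 CPM with O6-bzG and overlaps the other group.

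In the lists that follow most members were not called. Of 32 cell cycle genes that p53 represses through the DREAM complex, CCNE2 was higher (1.38-fold, adjusted p = 0.003), KIF20A was lower (log2 fold change −0.37, adjusted p = 7.8e-04) and 30 were not called, with a median log2 fold change of −0.01. With wild type p53 against pGFP, KIF20A was higher and CCNE2 lower. Of 10 heat shock genes 0 were called, and of 11 genes of transcription-coupled repair and RNA polymerase II, ERCC6 was higher (log2 fold change 0.29, adjusted p = 0.012, and 0.075 without both replicate 2 libraries or 0.11 without O6-bzG replicate 3). Of 9 genes of the aryl hydrocarbon receptor and drug oxidation, CYP1B1 was lower and TIPARP higher (1.33-fold), whereas AHR and NQO1 were not called. Of 10 NRF2 targets, HMOX1 was lower and SLC7A11 higher, and the call of HMOX1 was lost without both replicate 2 libraries (adjusted p = 0.1), O6-meG replicate 1 (0.092), O6-bzG replicate 2 (0.1) or O6-bzG replicate 3 (0.1). Of 16 genes of interferon and nucleic acid sensing, ISG15, TLR3, CGAS and STING1 were lower by 0.29 to 0.87 on the log2 scale (4 of 16, against 6.35% of all genes), of which TLR3 alone was called without both replicate 2 libraries. Leaving out single libraries, the call of CGAS was lost in 3 cases (O6-meG replicate 1, O6-bzG replicates 2 and 3, adjusted p of 0.13 to 0.14) and that of STING1 in all except O6-meG replicate 1 (0.078 to 0.27).

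**Figure D4:**
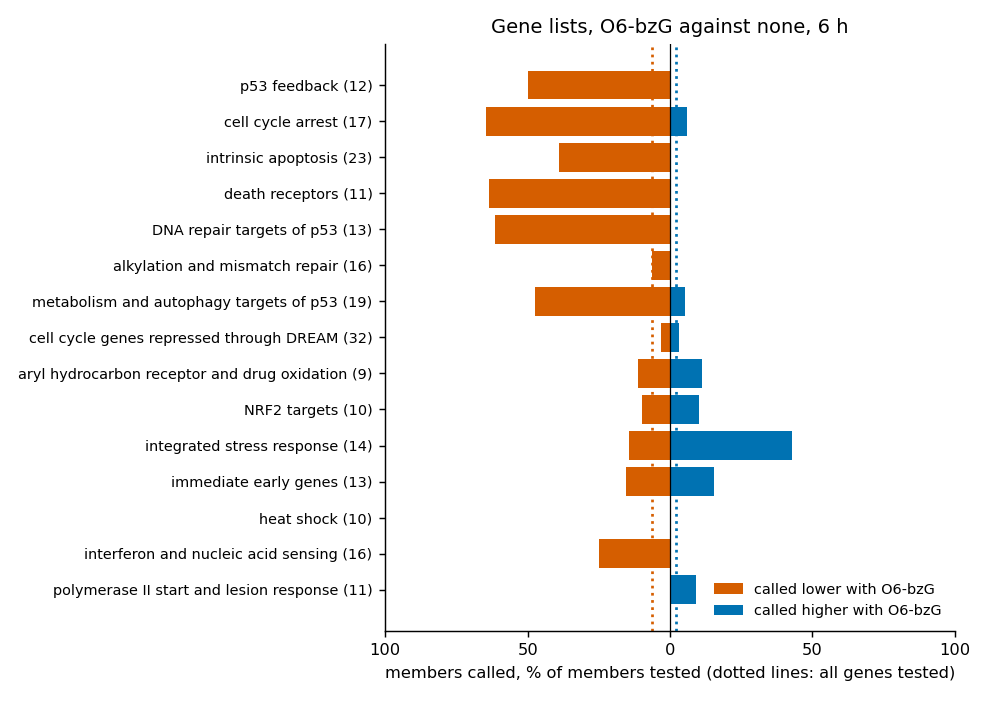
Bars give the share of tested members of each list, with their number in parentheses, that were called lower (orange, to the left) or higher (blue, to the right) with O6-bzG at 6 h. Dotted lines mark the shares of all genes tested, 6.35% lower and 1.94% higher. The 6 lists of p53 targets reach from 39.1% to 64.7% lower, alkylation and mismatch repair reaches 6.25%, and the integrated stress response extends to the right with 6 of 14.

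The original work took high-confidence p53 targets from a published meta-analysis. It listed those that wild type p53 raised at 6 h, in libraries of this series that the O6-bzG comparison does not use. The direction of this list repeats the overlap with wild type p53 given above and is not separate evidence. The copies of this list and of the one named continuous that were used here hold fewer genes than that work counts. Of the members at hand, 114 were lower with O6-bzG, 0 were higher and 9 were not called (median log2 fold change −1.43), and 102 were lower without both replicate 2 libraries. Of 3 further lists of that work, named early, continuous and late, 50 of 52, 65 of 69 and 29 of 53 members at hand were lower. Over all genes tested, 6.35% were lower. That work defined the early and continuous lists by reduced expression under TM at 6 h in these same samples. The fall of their members is therefore not independent evidence. Its late list holds genes that it called reduced under TM at 24 h only. That work marks reductions against wild type p53, whereas the falls counted here are against the O6-meG vector without O6-bzG.

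At 24 h more genes were called lower with O6-bzG than at 6 h, but fewer genes were called with at least a 2-fold change. A test of the difference between the times gave mostly genes with a lower value at 6 h. The 1326 lower genes had medians of −0.82 at 6 h and −0.46 at 24 h on the log2 scale, and 1285 had the same direction at both times. For the 406 higher genes the medians were 0.40 and 0.25, with the same direction in 379. Because these genes were chosen by their call at 6 h, a smaller median at 24 h is no evidence of a change. At 24 h, 1535 genes were called lower with O6-bzG (7.35%) and 844 higher (4.04%). A change of at least 2-fold in either direction was called for 452 genes at 24 h and for 589 at 6 h. Of the genes lower at 6 h, 711 were also lower at 24 h (53.6% of these, 46.3% of those at 24 h), and 139 higher genes were higher at both (34.2% and 16.5%). The difference between the times was itself called for 197 genes with a lower value at 6 h (0.944%) and 7 with a higher one (0.0335%), 204 in all. Of the 1326 lower genes it was called for 181, and of the 406 higher genes for 4. Without both replicate 2 libraries 109 genes were called, and with these libraries exchanged 0 (edgeR; 1688 at an unadjusted p under 0.05) or 64 (DESeq2).

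BTG2, GDF15 and SESN1 had the smallest p values of this test. BTG2 changed by −3.67 at 6 h and by −0.56 at 24 h on the log2 scale, GDF15 by −4.09 and −0.35, and SESN1 by −2.17 and −0.30 (adjusted p of the difference 2.4e-11, 2.4e-11 and 8.5e-08). The same held for TP53I3 (−2.54 and −0.46), FDXR (−2.46 and −0.33), BBC3 (−2.59 and −0.77), FAS (−1.89 and −0.20), XPC (−0.88 and 0.03) and CDKN1A (−2.16 and −0.76), each with a called difference. For PLK2 (−1.68 and −1.11) and APAF1 (−1.69 and −0.72) a difference between the times was not called (adjusted p = 0.16 and 0.092). SESN3 changed by 1.12 and 1.10. NR4A3, an orphan nuclear receptor gene, rose at 6 h (log2 fold change 1.02) and stood at −0.43 at 24 h, and DISP1, of hedgehog secretion, had 0.33 and −0.72 (adjusted p of the difference 0.0094 and 0.0026).

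**Figure D5:**
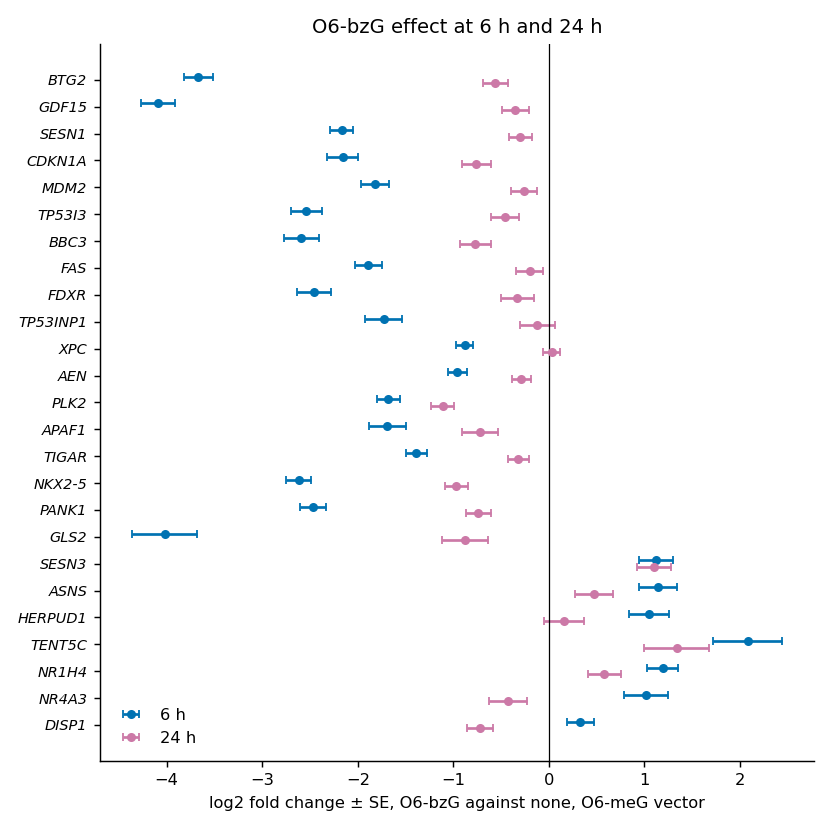
Points give the log2 fold change with O6-bzG against none in cells with the O6-meG vector at 6 h (blue) and 24 h (pink), with lines of 1 SE on each side, for 25 genes named in the text. BTG2 moves from −3.67 to −0.56 and GDF15 from −4.09 to −0.35, while SESN3 stays at 1.12 and 1.10.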

How the data were processed

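RNA was sequenced on a NextSeq 500 as single reads of 75 cycles after ribosomal RNA removal with a stranded kit. Alignment by the authors was to hg38 (STAR 2.5.3a), and featureCounts (Subread 1.5.2) assigned the reads to GENCODE 27 genes. The deposited values are raw counts without normalization. No strand setting for featureCounts is given in the sources used here. A deposited table of normalized signal was not used here beyond its header. Genes were named and placed with GENCODE 44 (38904 of 39359 matched).

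Counts were filtered by filterByExpr, scaled by TMM and fitted over all 30 libraries and 10 groups in R 4.3.3 with edgeR 4.0.16 (quasi-likelihood test, two-sided, Benjamini-Hochberg over all genes tested). Calls have an adjusted p under 0.05. DESeq2 1.42.0 was an alternative. The study calls its replicates biological triplicates. Whether they were separate cultures is not stated, and p values measure the spread between these samples. No libraries of 1 group agreed within sampling noise. Between same-numbered libraries of the compared groups the deviations from the group means correlated at −0.018 to 0.256, so the numbers were not taken as pairs there. They were at 0.243 to 0.428 between pGFP and O6-bzG and at 0.174 to 0.457 between pGFP and wild type p53. For these the main counts are also given with a replicate block. The scripts were tested on simulated data.

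The comparison, the grouping and the gene lists were chosen with earlier results of these data known. Genes named are those the paper names, the 10 largest changes and 5 smallest p values in each direction, called list members (or the 3 highest), the 3 smallest p values between the times and the 5 outside the wild type p53 calls. Others are marked, or are list members named as not called. Some items that this rule selects are not reported here. Of 153 genes so chosen, 108 overlap another gene, 88 of them on the opposite strand.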

Additional observations from a re-analysis of the deposited data

Results flagged for a closer look

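The effect of O6-bzG differed between 6 h and 24 h, by a test of the difference itself. The log2 fold change was lower at 6 h than at 24 h in 197 genes and higher in 7. The largest evidence was for BTG2, whose log2 fold change at 6 h minus that at 24 h was −3.12, for GDF15 (−3.74) and for SESN1 (−1.87). In the other direction it was for DISP1 (1.04), NR4A3 (1.45) and LINC00355 (0.70). The 6 h part of each value rests on the grouping by column names.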

How the results depend on the processing

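With the 2 replicate 2 libraries left out, 718 genes were lower (649 of them raised by wild type p53) and 156 higher, the effect differed between the times for 109, and 2 genes lay below pGFP. With these libraries exchanged the lower, higher, at least 2-fold and shared counts were each 0 with edgeR and with DESeq2, the count that differed between the times was 0 with edgeR and 64 with DESeq2, wild type p53 lowered 232 genes, and 16 genes (86 with DESeq2) lay above pGFP and 1 below. In that grouping the log2 fold change turned to 0.00 (DESeq2 0.01) for CYP1B1, to −0.12 for NGFR with both tools and to 0.00 for DDIT4 with DESeq2.

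The count of higher genes was 619 with DESeq2 size factors, 776 with DESeq2, 641 with at least 10 counts in every library and 1129 from the 6 h libraries alone. Higher genes then made up 34.8%, 38.1%, 41.1% and 40.5% of the called genes, and 31.4% with only the groups compared, against 23.4% in the values reported. With at least 10 counts, which removes genes near 0 in 1 group, 269 genes were at least 2-fold changed and 111 differed between the times. Genes lowered by wild type p53 numbered 669 with DESeq2, 243 with at least 1 count, 1219 with only the groups compared and 954 from the 6 h libraries. Those above pGFP with O6-bzG numbered 135 and those below it 43 with DESeq2, and 126 and 107 from the 6 h libraries.

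Leaving out 1 library at a time gave 954 to 1167 lower genes, 232 to 348 higher, 474 to 561 at least 2-fold changed, 836 to 1078 shared with wild type p53, 143 to 190 that differed between the times, 1879 to 1962 raised and 345 to 394 lowered by wild type p53, 27 to 58 above pGFP and 2 to 15 below it. The last count was 4, 5 and 2 without O6-bzG replicates 1, 2 and 3.

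Replicate numbers were not shown to pair the libraries with and without O6-bzG (correlations −0.018, 0.146 and 0.256, and not every library correlated best with its own number). Over all 6 h groups, 23 of 30 same-numbered pairs correlated above 0.1 (median 0.188), against 8 of 60 others (median −0.109). A replicate block gave 2665 lower genes (1787 raised by wild type p53) and 1260 higher, 728 that differed between the times, 2935 raised and 1104 lowered by wild type p53, and 383 above and 316 below pGFP. The cause of these shifts was not tested. Of the 94 called genes named in the text, 19 lost their call without both replicate 2 libraries.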
